A study of Mus musculus with 17 samples.

Results

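Tmem171 and Cbfa2t3 were the 2 transcripts examined here, of 47643 gene symbols in the table and 13305 that passed a filter on low values. Both were chosen because they ranked 1 and 2 of the 13305 by the p of the interaction of tumor and rFibcd1, that is, whether rFibcd1 acts differently with and without a tumor. Their levels by group, and the differences that make up the interaction, are therefore given as a description and without a test.

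RNA was sequenced from the muscle part of the diaphragm of 17 male C57BL/6J mice at 4 months of age. Control mice (n = 5) carried no tumor and received mock injections of PBS with albumin. Control + rFibcd1 mice (n = 5) carried no tumor and received rFibcd1, a recombinant C-terminal piece of mouse Fibcd1, a protein with a fibrinogen-like domain. LLC mice (n = 3) received mock injections and had tumors under the skin of the flanks, seeded with cells of the Lewis lung carcinoma, a mouse lung cancer line. LLC + rFibcd1 mice (n = 4) had the same tumors and received rFibcd1. Injections went into the peritoneal cavity, which the diaphragm borders, every other day in the last week.

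Cbfa2t3, also known as Eto2 or Mtg16, encodes a corepressor of the ETO/MTG family. These proteins do not bind DNA by themselves. They are brought to genes by DNA-binding proteins, among them the E proteins that recognise the E-box motif and the Tal1, Lmo2, Ldb1 and Gata complex of blood and endothelial cells, and they bring NCoR corepressors and histone deacetylases, which keep genes silent. Cbfa2t3 is known best for its part in blood cell development. Tmem171 encodes a predicted membrane protein about which little is known.

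Tmem171 (ENSMUSG00000052485) lies at chr13:98686235-98694834 on the minus strand of GRCm38, with 2 annotated transcripts, both coding. Cbfa2t3 (ENSMUSG00000006362) lies at chr8:122625141-122699109 on the minus strand, with 7 annotated transcripts, of which 4 are coding. The coding transcripts of Cbfa2t3 begin either at the far end of the gene or in a cluster of starts about the position 122678175, and the table gives 1 value for all of them, so the starts could not be told apart. Windows of 250 bases before these 2 starts are shown because they hold what the E proteins recognise, from the RefSeq promoter table on GRCm38.p6, 5′ to 3′ on the strand of the gene. Capitals mark every E-box, CANNTG, which reads the same on both strands.
Cbfa2t3 far start, chr8:122699110-122699359: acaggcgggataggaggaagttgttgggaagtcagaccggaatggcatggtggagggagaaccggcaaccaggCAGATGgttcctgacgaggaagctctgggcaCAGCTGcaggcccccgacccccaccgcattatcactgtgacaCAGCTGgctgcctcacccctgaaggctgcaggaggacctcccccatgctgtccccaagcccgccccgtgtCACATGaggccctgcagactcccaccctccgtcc
Cbfa2t3 inner start, chr8:122678176-122678425: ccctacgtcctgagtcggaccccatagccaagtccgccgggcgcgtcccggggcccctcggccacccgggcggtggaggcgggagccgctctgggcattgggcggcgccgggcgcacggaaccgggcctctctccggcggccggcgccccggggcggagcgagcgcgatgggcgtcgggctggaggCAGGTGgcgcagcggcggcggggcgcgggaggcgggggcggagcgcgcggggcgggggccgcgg

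The far window held 4 E-boxes, 2 of them with the letters CAGCTG, and the inner window held 1. Of 32851 such windows over all genes, 66.2% held at least 1 E-box, with a mean of 1.16 per window, and 4271 windows held CAGCTG. The inner window had 83.2% G or C and 43 CpG dinucleotides, and the far window 64.0% and 9, beside medians of 52.4% and 6 over all windows. A match is a description of the letters and not a measured binding site.

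The values are TPM (transcripts per 1000000), the authors' read counts per gene divided by gene length and scaled to the same sum in each mouse, so that levels can be compared between genes. Depth recovered from the low values was 50.8 to 54.6 reads per mouse in units of 1000000. Mitochondrially encoded transcripts made up 47.1% ± 1.09 of the Control TPM (SD, n = 5), 47.8% ± 1.93 in Control + rFibcd1 (n = 5), 42.9% ± 1.53 in LLC (n = 3) and 45.2% ± 1.48 in LLC + rFibcd1 (n = 4). The median gene stood 0.13 higher in tumor-bearing than in tumor-free mice (log2), and 0.07 higher when values were rescaled without mitochondrially encoded transcripts. For each transcript, lengths from 200 to 20000 bases were searched for the first that gave whole reads in all 17 mice, within 0.001 of a read. This was 1583 bases for Tmem171, the length of its annotated exons joined, and 4775 for Cbfa2t3. Whole reads were thus the aim of the search and not a separate check. No sequencing batch or hour of dissection is stated in the labels, so neither could be examined. In whole muscle, fewer cells of a type and less RNA per cell cannot be told apart. P-values measure the spread between these mice.

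Tmem171 was a scarce transcript in every group except LLC + rFibcd1. In Control mice it stood at 0.704, 1.15, 1.45, 0.809 and 0.732 TPM, from 28 to 55 reads. In Control + rFibcd1 mice it stood at 0.523, 0.372, 0.809, 0.591 and 0.664 TPM, from 15 to 32 reads. In LLC mice it stood at 0.608, 1.69 and 0.705 TPM, from 24, 67 and 27 reads. The 3 groups overlapped, and LLC replicate 2 was the highest of these 13 mice. In LLC + rFibcd1 mice Tmem171 stood at 4.06, 2.65, 3.68 and 3.37 TPM, from 165, 105, 150 and 136 reads. Each of these 4 mice lay above every other mouse.

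The reads set the precision of each value. The 105 reads of the lowest LLC + rFibcd1 mouse had a 95% exact Poisson interval of 85.9 to 127 reads, and the 67 reads of LLC replicate 2 one of 51.9 to 85.1. Within LLC, the 24 reads of replicate 1 had an interval of 15.4 to 35.7. Such intervals cover counting error only and describe single mice, and as Tmem171 was selected by its interaction, they are no test of the difference between groups.

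Cbfa2t3 was more abundant and varied less between mice of a group, with a CV of 2.13% to 8.92% against 17.4% to 59.8% for Tmem171. In Control mice it stood at 11.2, 13.2, 12.2, 13.3 and 12.5 TPM, and in Control + rFibcd1 mice at 11.8, 10.8, 10.5, 10.4 and 12.8 TPM. In LLC mice it stood at 12.5, 12.03 and 12.3 TPM, inside the range of Control. In LLC + rFibcd1 mice it stood at 15.9, 17.7, 18.7 and 16.9 TPM. The 3 other groups overlapped, and the 4 LLC + rFibcd1 mice again lay above every other mouse. Reads per mouse ranged from 1257 in the Control + rFibcd1 group to 2306 in LLC + rFibcd1. The TPM of Cbfa2t3 fit a length of 4775 bases, against 8373 for all annotated exons joined, so its level relative to other genes rests on the shorter length.

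**Figure D1:**
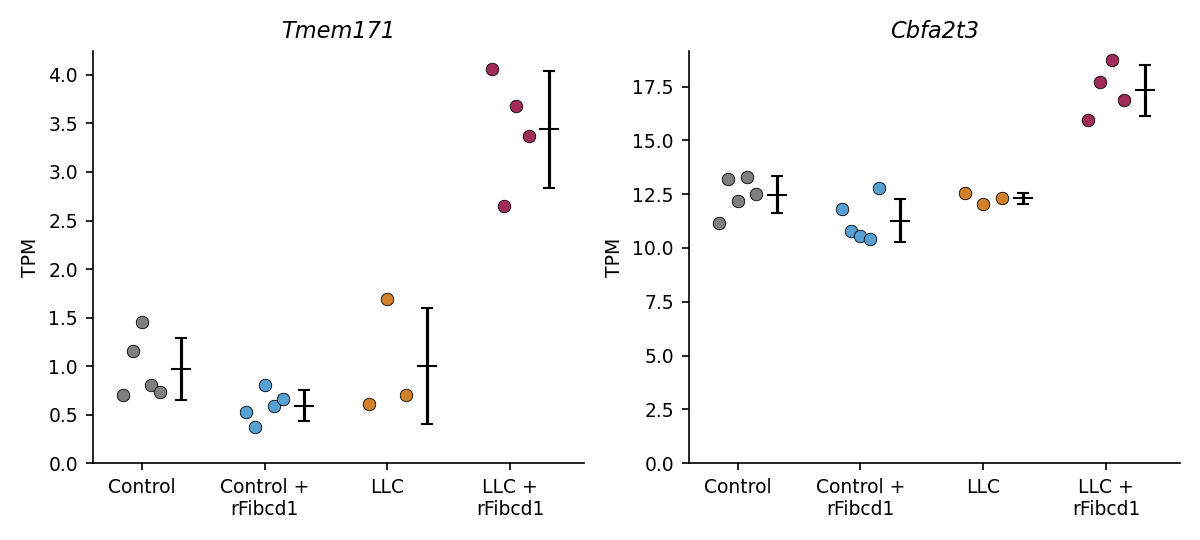
TPM of Tmem171 and Cbfa2t3 in each mouse (points) by group, with the group mean and SD (bars, n = 5, 5, 3 and 4). The 4 LLC + rFibcd1 mice lie above the other 13 mice in both panels, from 2.65 to 4.06 TPM for Tmem171 and from 15.9 to 18.7 TPM for Cbfa2t3.

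Of the genes tested, 108 of 13305 (0.812%) had every LLC + rFibcd1 mouse above every other mouse. Both transcripts are among them, as their selection favoured, and nothing is read from it.

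In order of level, Tmem171 stood at 3.44 ± 0.600 TPM in LLC + rFibcd1 (SD, n = 4), 1.00 ± 0.598 in LLC (n = 3), 0.970 ± 0.323 in Control (n = 5) and 0.592 ± 0.162 in Control + rFibcd1 (n = 5). LLC and Control differed by less than their spread, and Control + rFibcd1 lay below Control with overlap. Cbfa2t3 stood at 17.3 ± 1.19 TPM in LLC + rFibcd1 (SD, n = 4), 12.5 ± 0.862 in Control (n = 5), 12.3 ± 0.263 in LLC (n = 3) and 11.3 ± 1.00 in Control + rFibcd1 (n = 5). Control and LLC again differed by less than their spread. In TPM the groups fell in the same order for both transcripts except for LLC and Control, which could not be ordered for either on this scale. Both transcripts were selected on the same contrast with the same sign, which favours a shared order, and nothing is read from it. Relative to the median gene, the difference between LLC and Control was -0.16 for Tmem171 and -0.18 for Cbfa2t3 (log2). After quantile normalization it was -0.26 and -0.27.

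With a tumor, mean TPM of Tmem171 was 3.44 times as high with rFibcd1 as with mock injections, and without a tumor it was 0.610 times as high. The first ratio was 5.63 times the second. For Cbfa2t3 the ratio was 1.41 with a tumor and 0.903 without, and the first was 1.56 times the second. All 5 Control + rFibcd1 mice lay below the Control mean of Tmem171, and 4 of 5 below that of Cbfa2t3.

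On the log2(TPM + 1) scale, which understates changes of a transcript as scarce as Tmem171, its interaction was 1.48 ± 0.23 (SE, 95% interval 0.98 to 1.97). This was made of 1.18 ± 0.18 between LLC + rFibcd1 and LLC and -0.30 ± 0.15 between Control + rFibcd1 and Control. The interval of the latter ran from -0.61 to 0.02. Between LLC and Control the difference was -0.0029 ± 0.17, with an interval from -0.37 to 0.36, and between LLC + rFibcd1 and Control + rFibcd1 it was 1.48 ± 0.16.

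The interaction of Cbfa2t3 was 0.60 ± 0.096 (log2, SE, 95% interval 0.39 to 0.80). It was made of 0.46 ± 0.074 between LLC + rFibcd1 and LLC and -0.14 ± 0.061 between Control + rFibcd1 and Control. The interval of the latter ran from -0.27 to -0.0059. As parts of the selected interaction, these intervals are given as its precision and not as tests. Between LLC and Control the difference was -0.016 ± 0.071, with an interval from -0.17 to 0.13, and between LLC + rFibcd1 and Control + rFibcd1 it was 0.58 ± 0.065. By size, the interaction of Tmem171 ranked 104 of 13305 and that of Cbfa2t3 ranked 888. Their residual SDs were 0.240 and 0.0948 on this scale.

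The median gene stood 0.11 lower in LLC + rFibcd1 than in LLC and 0.16 higher in LLC than in Control (log2). Relative to it, Tmem171 differed by 1.29 and Cbfa2t3 by 0.57 between LLC + rFibcd1 and LLC, and by -0.16 and -0.18 between LLC and Control.

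**Figure D2:**
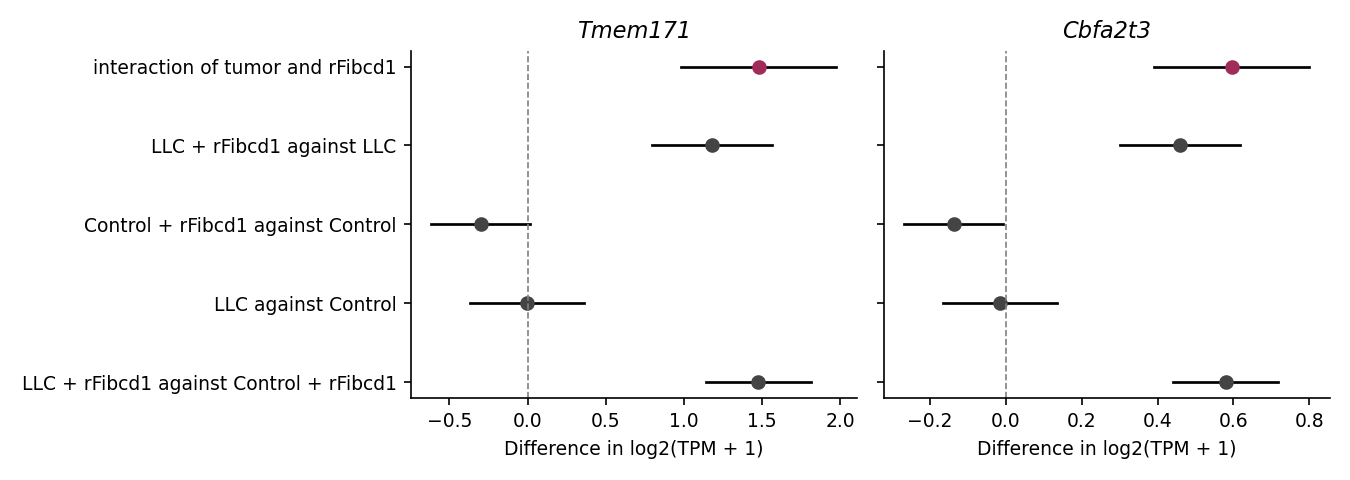
Differences in log2(TPM + 1) with their 95% intervals (lines) for the interaction and its 4 parts, with the horizontal axis of each panel on its own scale. The interaction was 1.48 for Tmem171 and 0.60 for Cbfa2t3, and the points between LLC and Control lie at -0.0029 and -0.016.

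Across all genes, the limma test of the interaction called 0 of 13305 at an adjusted p under 0.05 (0%), with 1142 at an unadjusted p under 0.05 and a smallest adjusted p of 0.0588. It also called 0 (0%) between Control + rFibcd1 and Control, with 584 at an unadjusted p under 0.05. Dunn's test called 0 in all 4 comparisons between 2 groups, also between LLC and Control, so its 0 carries no information here. Between LLC + rFibcd1 and LLC limma called 15 (0.113%), 8 higher and 7 lower. Between LLC and Control it called 4759 (35.8%), 3958 higher and 801 lower, and between LLC + rFibcd1 and Control + rFibcd1 1072 (8.06%), 934 higher and 138 lower. Under median-ratio scaling these splits were 1887 and 2035, and 210 and 283, after quantile normalization 1486 and 3181, and 183 and 265, and without mitochondrially encoded genes 2629 and 1465, and 383 and 198. The LLC against Control count was 2254 without LLC replicate 1 and 24 without LLC replicate 3. The count between LLC + rFibcd1 and LLC was 0 without LLC replicate 1 or LLC + rFibcd1 replicates 1 or 4, 1 without LLC replicate 3, and up to 33 without LLC + rFibcd1 replicate 3. The count between LLC + rFibcd1 and Control + rFibcd1 ranged from 476 without LLC + rFibcd1 replicate 3 to 2895 without Control + rFibcd1 replicate 1, and 11 genes were called in the interaction without LLC replicate 2.

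Pooled by mouse, tumor-bearing (n = 7) against tumor-free mice (n = 10), Tmem171 differed by 0.82 ± 0.12 (log2, SE) and Cbfa2t3 by 0.32 ± 0.048, or by 0.69 and 0.18 relative to the median gene. These values use the LLC + rFibcd1 mice and the residual spread on which the transcripts were selected, and are given without a p. LLC mice alone differed from Control by -0.0029 and -0.016, and LLC + rFibcd1 from Control + rFibcd1 by 1.48 and 0.58. Over all genes 5963 of 13305 (44.8%) were called in that comparison, 5167 higher (38.8%) and 796 lower. The split was 2328 higher and 2433 lower under median-ratio scaling, 1851 and 3253 after quantile normalization, and 3544 and 1519 when rescaled without mitochondrially encoded genes.

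Between the 9 rFibcd1-injected and the 8 mock-injected mice, Tmem171 differed by 0.36 ± 0.11 (log2, SE) and Cbfa2t3 by 0.13 ± 0.047, again as a description. The limma test called 0 genes there (0%), with 1427 at an unadjusted p under 0.05, and the rank test also called 0.

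No relation of the transcripts within groups was detected. After each group's mean was subtracted, their values over 17 mice had a Pearson r of -0.080 (permutation p = 0.732, 100000 permutations) and a Spearman rho of -0.074 (permutation p = 0.777). Without the 2 mice farthest from the median of Tmem171, LLC replicate 2 and Control replicate 3, r was 0.019. Pearson's and Spearman's measures were the 2 planned for this relation, and r was recomputed under 4 other settings and without each mouse. The mouse highest in Tmem171, LLC + rFibcd1 replicate 1 at 4.06 TPM, was the lowest of its group in Cbfa2t3 at 15.9 TPM. After quantile normalization, r was 0.516 (permutation p = 0.045).

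As a description of the selected difference, in 17 fits that each left out a mouse, the interaction of Tmem171 ranged from 1.34 without LLC replicate 1 to 1.71 without LLC replicate 2, and that of Cbfa2t3 from 0.56 to 0.64. With a pseudocount of 0.1 TPM in place of 1, the interaction of Tmem171 was 2.41, as its values lie close to the pseudocount, and that of Cbfa2t3 changed by less than its residual SD.

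**Figure D3:**
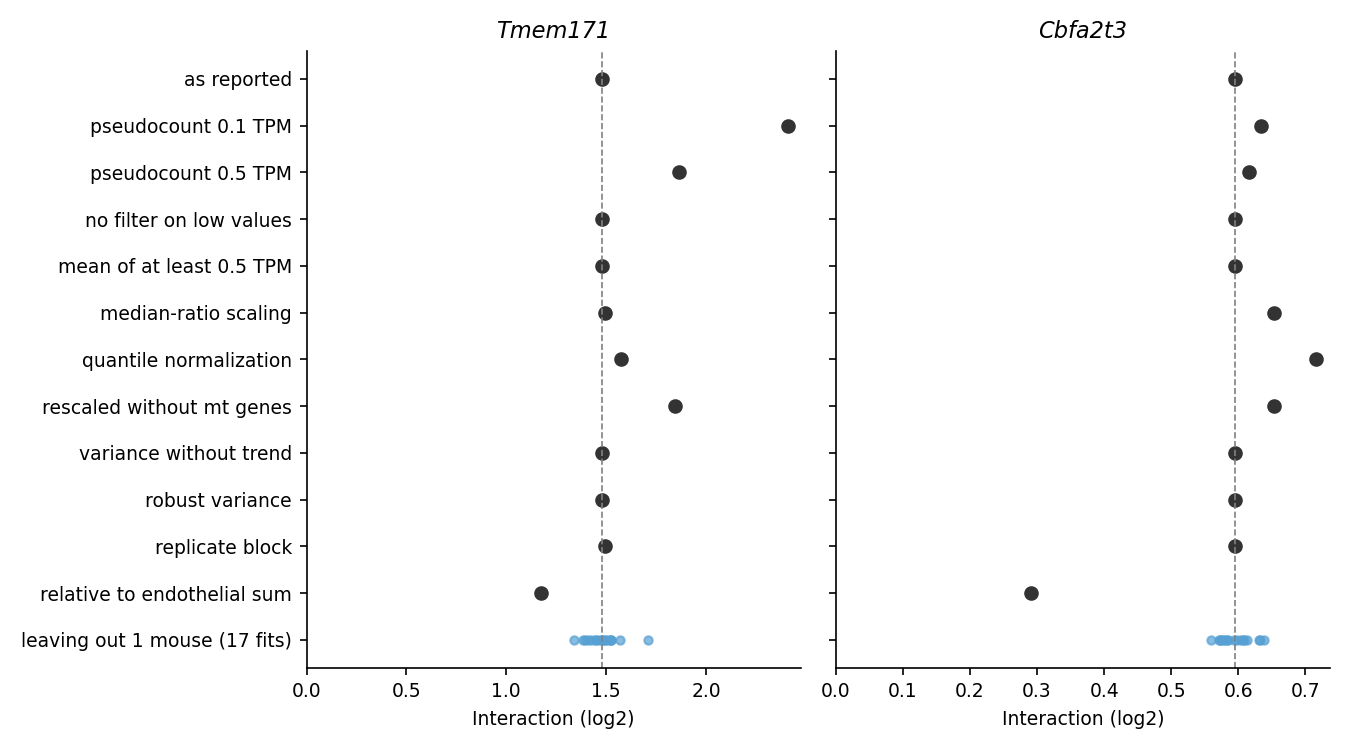
Interaction (log2) of Tmem171 and Cbfa2t3 as reported (dashed line) and under each other setting (dark points), with the 17 fits that each left out a mouse in the lowest row (blue points) and a horizontal axis from 0 on its own scale in each panel. For Tmem171 the values run from 1.17 to 2.41, and for Cbfa2t3 from 0.29, relative to the summed endothelial markers, to 0.72 after quantile normalization.

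Neither of the other members of the ETO/MTG family stood apart in LLC + rFibcd1. Cbfa2t2 (Mtgr1) averaged 3.28 ± 0.130 TPM in the Control group (SD, n = 5), 3.12 ± 0.237 in Control + rFibcd1 (n = 5), 3.56 ± 0.352 in LLC (n = 3) and 3.22 ± 0.274 in LLC + rFibcd1 (n = 4). It passed the limma test in 0 of 7 comparisons, with 0 at an unadjusted p under 0.05 in the interaction, and all 4 groups overlapped. Runx1t1 (Eto), the founding member, ranged from 0.307 to 0.755 TPM, or 59 to 150 reads, and was below the filter. Per length, Cbfa2t3 was thus the most abundant of the 3 in every group.

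The corepressors that ETO/MTG proteins bring to genes were taken as a list of 9 (Ncor1, histone deacetylases 1 to 3 and associated subunits). In the interaction 0 of the 9 passed limma's test (0 at an unadjusted p under 0.05), and between LLC + rFibcd1 and LLC 0 passed (3 at an unadjusted p under 0.05). The median interaction of the list was -0.10, beside -0.06 over all genes (log2). In tumor-bearing against tumor-free mice 5 of 9 were higher, beside 38.8% of all genes, and nothing about the list is read from it. Hdac1, a deacetylase, differed by 0.49 ± 0.10 (log2, SE; limma adjusted p = 0.00305), Tbl1x by 0.31 ± 0.083 (adjusted p = 0.00919), the Sin3 scaffold Sin3b by 0.31 ± 0.069 (adjusted p = 0.00448) and Gps2 by 0.22 ± 0.028 (adjusted p = 0.000393). Tbl1x and Gps2 encode subunits of the NCoR complex. The call of Gps2 was lost under median-ratio scaling, at 0.06, and after quantile normalization, at 0.09.

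Of 15 DNA-binding partners and members of the Tal1 complex, 12 were tested, and Gata1, Gfi1 and Gfi1b were below the filter. None of the 12 passed in the interaction or between LLC + rFibcd1 and LLC, where 0 and 3 had an unadjusted p under 0.05. Against tumor-free mice, 6 of 12 were higher in tumor-bearing mice, again beside 38.8% of all genes. The 4 with the largest differences were Lyl1, a close relative of Tal1, by 0.74 ± 0.17 (log2, SE; limma adjusted p = 0.00479), Lmo2, which bridges the complex, by 0.55 ± 0.089 (adjusted p = 0.00105), the E protein Tcf3 by 0.47 ± 0.10 (adjusted p = 0.00344) and Ldb1 by 0.33 ± 0.085 (adjusted p = 0.00775). These 4 differed in this direction between LLC and Control as well, with adjusted p from 0.00996 to 0.0196, and each of these calls was lost without LLC replicate 3. Lyl1 averaged 5.47 ± 0.910 TPM among Control mice (SD, n = 5), 11.5 ± 1.55 among LLC mice (n = 3) and 8.38 ± 3.56 among LLC + rFibcd1 mice (n = 4), an order unlike that of Cbfa2t3. The list holds genes that leukocytes also express.

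**Figure D4:**
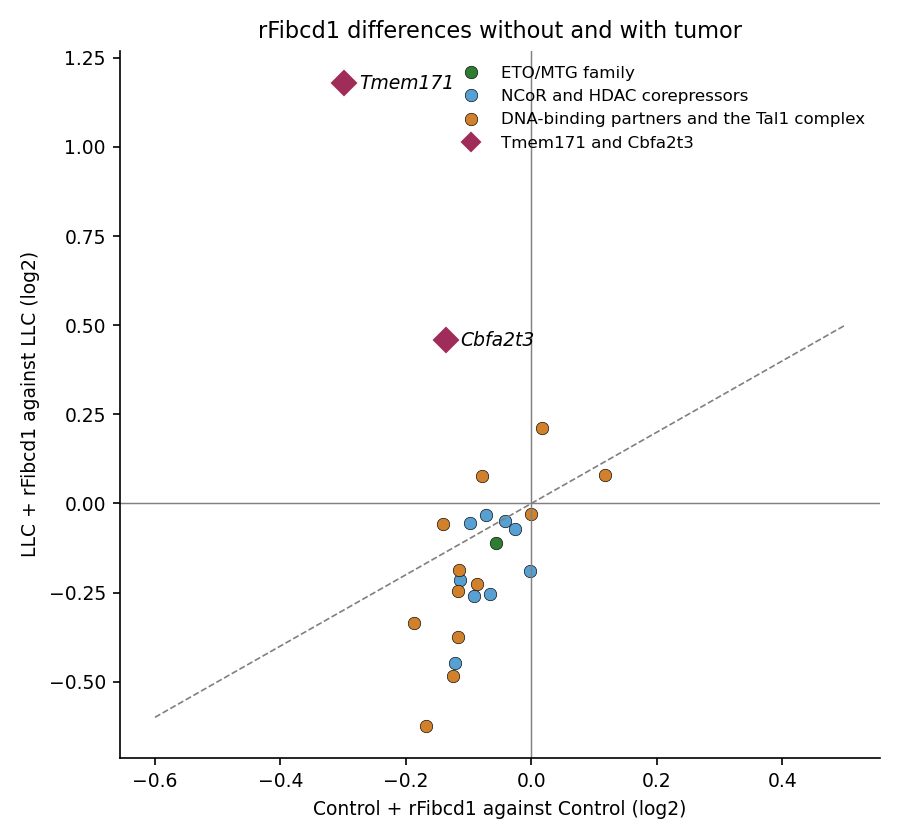
Difference in log2(TPM + 1) between Control + rFibcd1 and Control (horizontal) and between LLC + rFibcd1 and LLC (vertical) for Tmem171, Cbfa2t3 and 22 tested genes of the ETO/MTG family and its partners, with the line of equal differences dashed. Tmem171 and Cbfa2t3 were selected for their distance from the line, at vertical values of 1.18 and 0.46, and 0 of the 22 genes passed the test of the interaction.

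Genes linked to control by Cbfa2t3 were taken as a list of 6, with Id2, an inhibitor of E proteins, and genes of glycolysis and the hypoxia response (Pfkfb3, Pfkfb4, Pdk1, Hif1a and Egln3). In the interaction 0 of the 6 passed limma's test (1 at an unadjusted p under 0.05), and between LLC + rFibcd1 and LLC 0 passed (1 at an unadjusted p under 0.05). The median difference between LLC + rFibcd1 and LLC was -0.30, beside -0.11 over all genes (log2). Id2 stood at 10.7 ± 3.26 TPM in the Control group (SD, n = 5), 10.9 ± 3.22 in Control + rFibcd1 (n = 5), 20.2 ± 8.97 in LLC (n = 3) and 13.5 ± 2.95 in LLC + rFibcd1 (n = 4), and all groups overlapped. Pfkfb3 ranged from 12.02 to 37.7 TPM in the LLC mice and from 8.65 to 20.8 TPM in the LLC + rFibcd1 mice. The gene with an unadjusted p under 0.05 was Pfkfb4 in both comparisons. It ranged from 6.67 to 7.80 TPM in LLC and from 5.21 to 5.68 in LLC + rFibcd1, without overlap, and from 5.35 to 7.21 in Control. Its difference between LLC + rFibcd1 and LLC was -0.32 ± 0.077 (log2, SE, limma adjusted p = 0.124), and its interaction was -0.27 ± 0.10. In tumor-bearing against tumor-free mice, Id2 (0.53 ± 0.19, limma adjusted p = 0.0374), Pfkfb3 (0.80 ± 0.31, adjusted p = 0.045) and Hif1a (0.32 ± 0.11, adjusted p = 0.0304) were higher, and each call was lost under median-ratio scaling, quantile normalization and rescaling without mitochondrially encoded genes.

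Over the 17 mice, the 6 genes with values most like those of Tmem171 on the log2 scale were Fam110b (r = 0.926), Gm9917 (0.911), Ybx1 (0.908), Card14 (0.900), Inpp5a (0.899) and Zfp346 (0.892). For Cbfa2t3 they were Ybx1 (r = 0.910), Ankrd39 (0.904), Fam101b (0.901), Plekhg1 (0.895), Col4a2 (0.892) and Tek (0.875). Ybx1, which encodes an RNA- and DNA-binding protein, stood on both lists, at 277.2 ± 2.63 TPM in the Control group (SD, n = 5), 260.5 ± 8.84 in Control + rFibcd1 (n = 5), 276.0 ± 2.30 in LLC (n = 3) and 310.1 ± 8.88 in LLC + rFibcd1 (n = 4). The transcripts were themselves alike over mice at r = 0.866.

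Such values follow the 4 group means, which the mice share. Within groups, r of the 6 genes ranged from 0.323 to 0.833 for Tmem171, highest for the zinc finger gene Zfp346, and from 0.245 to 0.656 for Cbfa2t3, highest for Fam101b. The genes were picked by r over the same mice, which favours a positive r within groups, so nothing is read from it. The genes least like Tmem171 were Ola1 (r = -0.891), Pik3r1 (-0.876) and Hlf (-0.869), and those least like Cbfa2t3 were Mylk4 (-0.860), Mybpc2 (-0.817) and Tef (-0.809). Mylk4 and Mybpc2 encode a kinase and a myosin-binding protein of muscle, and Hlf and Tef are clock-controlled transcription factors.

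Of the marker lists examined, the sum of endothelial genes set the LLC + rFibcd1 mice apart, although single markers overlapped, such as Kdr at 23.2 to 28.0 TPM in LLC + rFibcd1 and 20.1 to 28.5 TPM in Control. The summed level of 10 endothelial markers was 276.9 to 309.4 TPM in Control, 250.2 to 295.6 in Control + rFibcd1, 293.7 to 336.9 in LLC and 346.9 to 370.1 in LLC + rFibcd1, without overlap between the last and the rest. No marker was at 0. All 10 had a positive interaction, 0 passed and 6 had an unadjusted p under 0.05, with a median of 0.23 beside -0.06 over all genes (log2). Between LLC + rFibcd1 and LLC 0 of 10 passed limma's test (3 at an unadjusted p under 0.05). Between LLC and Control 2 of 10 were higher, beside 35.8% of all genes called in either direction, Pecam1 by 0.28 ± 0.067 (log2, SE; limma adjusted p = 0.0122) and Esam by 0.30 ± 0.066 (adjusted p = 0.0108), and both calls were lost under median-ratio scaling, after quantile normalization, with the replicate block and without LLC replicate 3. Between LLC + rFibcd1 and Control + rFibcd1 7 of 10 were higher, beside 7.02% of all genes. Under each of the 3 other scalings 4 of 10 were higher, beside 1.59% of all genes for median-ratio scaling, 1.38% for quantile normalization and 2.66% without mitochondrially encoded genes. The 4 largest differences between LLC + rFibcd1 and Control + rFibcd1 were of Cldn5 (0.92 ± 0.19, log2, SE; limma adjusted p = 0.0102), Pecam1 (0.49 ± 0.062, adjusted p = 0.000878), Tek (0.47 ± 0.061, adjusted p = 0.0011) and Esam (0.47 ± 0.061, adjusted p = 0.0011), genes of endothelial junctions and of the angiopoietin receptor.

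Cbfa2t3 amounted to 4.60% to 5.06% of the endothelial sum in LLC + rFibcd1, 3.93% to 4.71% in Control, 3.78% to 4.39% in Control + rFibcd1 and 3.72% to 4.20% in LLC, so that on this measure LLC + rFibcd1 overlapped Control. Relative to the sum, a comparison added after the data were seen, the interaction of Cbfa2t3 was 0.29 and that of Tmem171 1.17 (log2). The part of endothelial content in the levels of either transcript was not tested.

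The sum of clock genes also set these mice apart, in the other direction. It adds genes that moved in opposite directions, and abundant genes weigh most in it. From Control + rFibcd1 to LLC + rFibcd1, mean TPM went from 143.8 to 65.2 for Dbp and from 75.9 to 43.2 for Tef. That of Nr1d1 went from 69.0 to 103.8 (limma adjusted p = 0.152). The summed level of 16 circadian clock genes was 372.2 to 460.6 TPM in LLC + rFibcd1 and 470.4 to 635.0 TPM in the 13 other mice. Between LLC + rFibcd1 and Control + rFibcd1 3 of 16 were higher and 7 lower, beside 7.02% and 1.04% of all genes. Arntl (Bmal1), a core activator of the clock, was higher by 1.71 ± 0.24 (log2, SE; limma adjusted p = 0.00182), from 2.70 ± 0.502 TPM (SD, n = 5) to 11.4 ± 3.76 (n = 4). Per2, a core repressor, was lower by 1.47 ± 0.33 (adjusted p = 0.0146), Ciart by 1.20 ± 0.30 (adjusted p = 0.0258) and the clock output gene Dbp by 1.12 ± 0.17 (adjusted p = 0.00239). The call of Per2 was lost without LLC + rFibcd1 replicate 2, and that of Ciart in 4 of 17 fits without a mouse. Between LLC + rFibcd1 and LLC, Hlf was lower by 1.00 ± 0.16 (adjusted p = 0.0334) and Dbp by 1.12 ± 0.19 (adjusted p = 0.0383), 2 of 16 beside 0.0526% of all genes, but the call of Dbp was lost with a pseudocount of 0.1 TPM, under each of the 3 other scalings and in 10 of 17 fits without a mouse, and that of Hlf after quantile normalization and in 4 of 17. With the replicate block and with the 2 groups alone, 0 of all genes were called there, so these 2 were lost with the rest. Dunn's test called 0 genes between any 2 groups and is not read for them. In the interaction 0 of 16 passed and 9 had an unadjusted p under 0.05. The part of the hour of dissection, or of the clock, in the levels of Tmem171 and Cbfa2t3 was not tested.

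**Figure D5:**
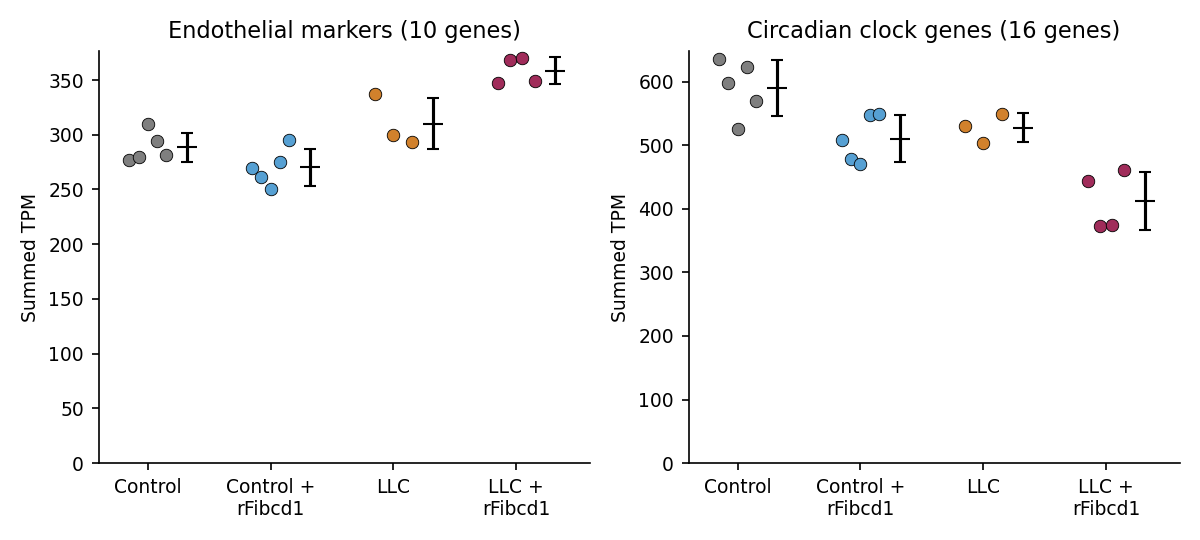
Summed TPM of 10 endothelial markers and of 16 circadian clock genes in each mouse (points) by group, with the mean and SD (bars, n = 5, 5, 3 and 4). LLC + rFibcd1 mice lie above all others for endothelial markers, from 346.9 to 370.1 TPM, and below all others for clock genes, from 372.2 to 460.6 TPM. The clock sum adds genes that moved in opposite directions.

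Leukocyte lists differed in the genes called between LLC + rFibcd1 and Control + rFibcd1. Between LLC and Control, 7 of 7 B cell, 6 of 6 T cell and 5 of 7 macrophage markers were called higher. So were 5 of 5 neutrophil and 2 of 3 plasmacytoid dendritic cell markers. Over all genes 35.8% were called there in either direction, and 24 genes without LLC replicate 3. Summed B cell markers were 231.3 to 293.2 TPM in LLC, 19.3 to 288.2 in LLC + rFibcd1, 3.15 to 99.6 in Control and 3.99 to 141.8 in Control + rFibcd1, and LLC + rFibcd1 overlapped each of the other groups. Summed neutrophil markers were 4.90 to 16.9 TPM in Control, 5.14 to 78.7 in Control + rFibcd1, 50.1 to 110.4 in LLC and 56.5 to 211.6 in LLC + rFibcd1. Of 5 tested, 4 were higher in LLC + rFibcd1 than in Control + rFibcd1, beside 7.02% of all genes, S100a9 by 2.95 ± 0.78, S100a8 by 2.63 ± 0.70, Retnlg by 1.81 ± 0.53 and Csf3r by 1.14 ± 0.32 (log2, SE; limma adjusted p from 0.0331 to 0.0478). The count was 2 with a pseudocount of 0.1 TPM, 1 with no filter, and 0 under each of the 3 other scalings, with the replicate block and with the 2 groups alone. Dunn's test called 0 of all genes there, so its 0 is not read. In fits without a mouse the count was 0 to 4, with 0 without Control + rFibcd1 replicates 2, 4 or 5 or LLC + rFibcd1 replicates 1, 2 or 3. The part of these cells in the levels of Tmem171 and Cbfa2t3 was not tested. Summed myofiber markers were 52601 to 55752 TPM in LLC and 54426 to 62854 in LLC + rFibcd1, against 59841 to 67613 in tumor-free mice, the highest sums of any list in all 17 mice. Of the 10 myofiber markers 0 passed the test of the interaction, with 3 at an unadjusted p under 0.05 and 8 positive. Lists of plasmacytoid dendritic cells, T cells, macrophages, neutrophils, red cells, fibroblasts, adipocytes, mesothelium and Schwann cells had 0 genes past that test, with 0 at an unadjusted p under 0.05. In each of them the LLC + rFibcd1 mice overlapped another group.

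Genes next to either transcript did not pass the test of the interaction. Of the 3 protein-coding genes on each side of Tmem171, Tmem174, Gm10320, Foxd1 and 1700024P04Rik were below the filter, and Fcho2 and Tnpo1 passed in 0 of 7 comparisons. On either side of Cbfa2t3, Pabpn1l was below the filter, and Trappc2l, Galns, Acsf3, Cdh15 and Ankrd11 were tested, of which 0 passed in the interaction or between LLC + rFibcd1 and LLC. Galns was higher in LLC than in Control by 0.85 ± 0.22 (log2, SE, limma adjusted p = 0.0144) and Trappc2l by 0.11 ± 0.040 (adjusted p = 0.0435), beside 35.8% of all genes called. The former was lost without LLC replicate 3, and the latter flipped in direction under median-ratio scaling and quantile normalization. Both were also called in tumor-bearing against tumor-free mice (adjusted p = 0.00623 and 0.00377), beside 44.8% of all genes. Trappc2l was called between LLC + rFibcd1 and Control + rFibcd1 too (0.15 ± 0.037, adjusted p = 0.0286), a call lost in 5 of 17 fits without a mouse. Gm10612, antisense to the far start of Cbfa2t3, was at most 0.0738 TPM in any mouse. Whether the counting used strand is not stated, and reads of such overlapping genes could then be shared. Gm20388, an annotated readthrough gene that spans the region on the other strand, stood at 15.9 to 23.8 TPM, with an interaction of -0.17 ± 0.15 (log2, SE).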

How the data were processed

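RNA-seq of the diaphragm was measured in 17 mice, with groups and replicate numbers taken from the sample titles. The authors aligned reads to GRCm38 (mm10) and deposited TPM per gene, made in CLC Genomics Workbench. The labels name a stranded library kit and the study's methods another kit and sequencer, so the use of strand and the annotation release are not known. All 17 columns were matched, and 0 were left without a sample. Symbols were matched to GENCODE release 21 of the mouse genome for 45084 of 47643 (94.6%), and reads per mouse were recovered from low values, of which 79.2% to 81.8% were whole within 0.02 of a read, against 4% for random values.

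A gene entered the test where 3 or more mice reached 1 TPM, log2(TPM + 1) was taken, and limma 3.58.1 in R 4.3.3 fitted 1 mean per group with a trend, two-sided, with Benjamini-Hochberg adjustment and a threshold of 0.05. Tmem171 reached 1 TPM in 7 mice (2 Control, 0 Control + rFibcd1, 1 LLC and 4 LLC + rFibcd1), and Cbfa2t3 in all 17. The study used Kruskal-Wallis and Dunn tests, whose normal approximation is poor with 3 to 5 mice a group, so limma was used. The fit was tested on simulated data. Correlations used 100000 permutations within groups. Reads have exact Poisson 95% intervals.

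The members and the gene lists were chosen with earlier results of these data known. Genes were named by rule. These were the members, the 6 most and 3 least like each by Pearson r, the ETO/MTG family and the 3 nearest coding genes on each side. List genes past the threshold were named in chosen comparisons only (the 4 largest where more passed). Other genes that passed, such as those of B cells, T cells, macrophages and myofibers between LLC and Control, are not named. Genes that missed the test, and Gm10612 and Gm20388, were named after their values were seen. Alternatives were the pseudocount, the filter, median-ratio and quantile scaling, rescaling without mitochondrially encoded genes, the variance model, the replicate number as a block, the 2 groups alone, rank tests and leaving out each mouse. Figures were drawn with Python 3.11.15. 1 gene of the corepressor list is not reported here and was left out of its counts.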

Additional observations from a re-analysis of the deposited data

Results flagged for a closer look

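The group difference of Tmem171 between rFibcd1 and mock injections had opposite signs with and without a tumor. All 4 LLC + rFibcd1 mice lay above the LLC mean and all 5 Control + rFibcd1 mice below the Control mean, although the Control + rFibcd1 and Control mice overlapped. The difference of the differences was 1.48 (log2). Tmem171 was selected on this difference, so it was not tested here. Of 12 groups of 4 or 5 mice examined for a mouse far from the rest of its group, in the transcripts and their family, 0 had one. The LLC group of 3 mice was too small for this check, and there LLC replicate 2 stood at 1.69 TPM of Tmem171, against 0.608 and 0.705 in the others. Without it the interaction of Tmem171 was 1.71 and 11 genes were called in the interaction.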

How the results depend on the processing

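Under scaling and pseudocount alternatives the differences of both transcripts kept their direction except near 0 between LLC and Control. With a pseudocount of 0.1 TPM, Tmem171 had an interaction of 2.41, 1.80 between LLC + rFibcd1 and LLC, -0.61 between Control + rFibcd1 and Control and 2.37 between LLC + rFibcd1 and Control + rFibcd1 (log2). With 0.5 TPM the first, second and last were 1.86, 1.45 and 1.85. Rescaled without mitochondrially encoded genes they were 1.85, 1.45 and 1.77, and Cbfa2t3 differed by -0.12 between LLC and Control. Under median-ratio scaling Cbfa2t3 differed by 0.59 between LLC + rFibcd1 and LLC, -0.21 between LLC and Control and 0.45 between LLC + rFibcd1 and Control + rFibcd1. After quantile normalization these were 0.64, -0.27 and 0.45, with an interaction of 0.72, and Tmem171 differed by -0.26 between LLC and Control. Relative to the summed endothelial markers, chosen after seeing the data, Tmem171 had an interaction of 1.17 and 1.07 between LLC + rFibcd1 and Control + rFibcd1, and Cbfa2t3 had 0.29 and 0.17, with 0.25 between LLC + rFibcd1 and LLC and -0.12 between LLC and Control.

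In tumor-bearing against tumor-free mice, where the values of the transcripts are a description, the Wilcoxon rank test leaves the differences at 0.82 and 0.32, and as for limma its p is not given. The correlation of the transcripts within groups was 0.516 after quantile normalization (permutation p = 0.045), of the opposite sign. Quantile normalization also turned Cbfa2t2 to -0.25 between LLC and Control (adjusted p = 0.0388) and to -0.18 in tumor-bearing mice (adjusted p = 0.0261), and Tbl1xr1 and Tal1 to -0.0096 and -0.064 in tumor-bearing mice. Trappc2l between LLC and Control was -0.092 under median-ratio scaling and -0.035 under quantile normalization, and in tumor-bearing mice -0.036 under median-ratio scaling. The cause was not tested.

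Counts of called genes moved more. The interaction called 1 gene with no filter, with median-ratio scaling and with quantile normalization. LLC + rFibcd1 against LLC called 2 with a pseudocount of 0.1 TPM, 48 with no filter, 7 with median-ratio scaling and 0 with the 2 groups alone and by Dunn's test. LLC against Control called 0 by Dunn's test. LLC + rFibcd1 against Control + rFibcd1 called 493 with median-ratio scaling, 448 after quantile normalization, 581 without mitochondrially encoded genes, 304 with the 2 groups alone and 0 by Dunn's test. Between rFibcd1- and mock-injected mice 1 was called with no filter. Replicate numbers did not pair the mice, as r of same-numbered mice ranged from -0.459 to 0.485 over 22 pairs, with 4 over 0.1, and 1 of 17 mice was most like its own number. With the replicate block, 0, 5, 492 and 3782 genes were called between LLC + rFibcd1 and LLC, between LLC and Control, between LLC + rFibcd1 and Control + rFibcd1, and between tumor-bearing and tumor-free mice.

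Leaving out a mouse gave 0 to 11 genes called in the interaction, 0 to 33 between LLC + rFibcd1 and LLC, 24 to 5244 between LLC and Control, 476 to 2895 between LLC + rFibcd1 and Control + rFibcd1, and 4140 to 6613 in tumor-bearing mice. Tmem171 then ranged from 1.34 to 1.71 in the interaction and 0.70 to 0.98 in tumor-bearing mice, and Cbfa2t3 from 0.56 to 0.64 and 0.26 to 0.36. At 15 to 67 reads outside LLC + rFibcd1, Tmem171 is limited by depth, and 3 LLC mice limit every comparison with that group.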
